A study of Arabidopsis thaliana with 12 samples.

Results

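AT3G04500 and AT5G04600 are Arabidopsis genes for proteins of the RNA recognition motif family. The array platform gave each of them 1 probe that named no other gene, which made 2 genes of the 691 named alone on a probe, and no shared probe named either of them. Both had been chosen for lower signal in the aap6 mutant, from the same 12 arrays that are described here. Their difference between the genotypes is therefore given as a description, without a test.

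The RNA recognition motif is a small protein fold that binds single-stranded RNA, with contacts made mainly through a pair of short conserved stretches called RNP1 and RNP2. Proteins that carry it take part in splicing, 3′ end formation, RNA export, stability and translation, and in plants also in the handling of chloroplast and mitochondrial transcripts. The gene table used here gave neither gene a name of its own, so no more specific role is stated. It placed AT3G04500 on chromosome 3 with 3 RefSeq transcripts and AT5G04600 on chromosome 5 with 1, and no source used here says which transcripts the probes detect.

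The study compared wild-type (WT) plants of the ecotype Wassilevskija with an aap6 mutant in the same ecotype. The mutant lacks AAP6, an amino acid transporter that the labels place in the xylem parenchyma. Each genotype had 6 arrays of total RNA, numbered 1 to 6, with 3439 probes each. The sources used here do not give tissue, plant age, growth conditions, the mutant allele or the kind of array. No probe named AAP6 alone, so the genotype labels were not checked against the mutated transcript.

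The deposited values were linear intensities from 0 to 100, with a maximum of 100 on every array. Array medians were 0.142 to 0.164 in WT and 0.234 to 0.265 in aap6, so the typical probe was brighter in the mutant arrays. Between 334 and 550 probes of a WT array and between 236 and 320 of an aap6 array were listed at 0. Arrays 1 and 2, 3 and 4, and 5 and 6 of a genotype resembled each other, with correlations across probes of 0.993 to 0.998 on the linear scale against 0.955 to 0.980 for other arrays of that genotype. Arrays of different genotypes reached 0.984 on that scale, and on the log2 scale after quantile normalization the values within pairs (0.910 to 0.971) overlapped those of other arrays of the genotype (0.890 to 0.945). Each such pair was averaged and counted as 1 sample (n = 3 per genotype). Since the labels name no separate plants or extractions, every SD and p-value covers only the spread among these samples, which may be technical. The number of arrays limits the precision, and in bulk samples fewer cells expressing a gene and less RNA per cell cannot be told apart. For the 3 genes whose name text holds the word photosystem, PSBY, LHB1B2 and PSBW, the mean position within an array was at the 93.1 percentile or above, although probe signals are not amounts that can be set against each other.

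As deposited, AT3G04500 had its lowest WT intensity at 0.146, its median at 0.188 and its highest at 0.256. In aap6 the lowest was 0.0591, the median 0.113 and the highest 0.148. The aap6 arrays were the lower ones, and the groups met only at their edges, where aap6 array 4 lay just above WT array 3. The other 5 aap6 arrays were below every WT array. Neither genotype had an intensity of 0 for this gene. Means of the averaged samples were 0.194 ± 0.0360 (SD, n = 3) in WT and 0.109 ± 0.0273 in aap6, which is 1.79-fold lower in the mutant. Number by number, aap6 was lower than WT in 6 of 6.

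For AT5G04600 the genotypes lay closer together as deposited. Its WT intensities had a lowest value of 0.180, a median of 0.231 and a highest of 0.323. In aap6 these were 0.163, 0.194 and 0.234. The groups overlapped widely, with 2 of 6 aap6 arrays below every WT array and 3 of 6 WT arrays above every aap6 array. Means were 0.241 ± 0.0546 (SD, n = 3) in WT and 0.195 ± 0.0225 in aap6, a difference smaller than the SD among the WT samples. Arrays 1 and 2, averaged, gave 0.192 in both genotypes, while arrays 3 and 4 gave 0.231 in WT and 0.174 in aap6, and arrays 5 and 6 gave 0.2995 and 0.219. Thus 2 of the 3 sample pairs were lower in aap6 on the deposited scale and the remaining pair was level.

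**Figure D1:**
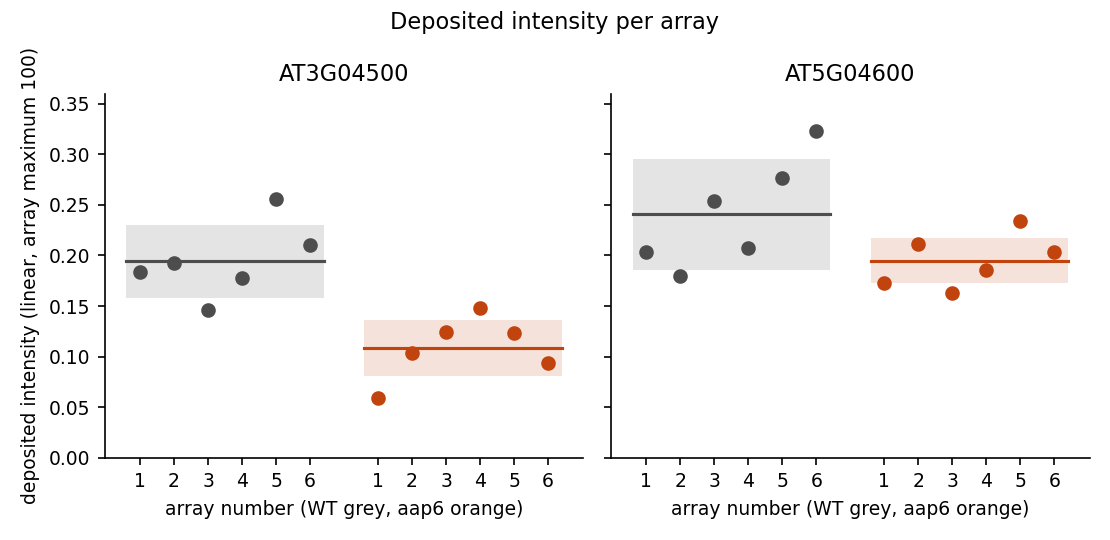
Deposited intensity (linear, array maximum 100) of the AT3G04500 and AT5G04600 probes on each array, by array number. Points are single arrays, WT in grey and aap6 in orange, lines are means of the 3 averaged samples and bands their SD. For AT3G04500 the genotypes meet only near 0.146 to 0.148, and for AT5G04600 they share the range from 0.180 to 0.234.

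Position within an array is left as it is by any factor or curve that keeps the order of the probes. It is relative to the other probes, however, and falls where they are brighter at an equal intensity. For AT5G04600, arrays 1 and 2 averaged 0.192 in both genotypes as deposited, yet their mean position differed by -15.3 points, aap6 minus WT. On WT arrays AT3G04500 stood at the 48.2 percentile of all probes at its lowest, the 57.7 at its median and the 64.6 at its highest. On aap6 arrays it stood at 17.7, 26.2 and 30.8. The gene was thus slightly above the middle of the WT arrays and in the lower part of the aap6 arrays, with a gap of 17.4 percentile points between the closest arrays. AT5G04600 stood at the 57.0, 62.3 and 69.9 percentile in WT and at 33.8, 40.6 and 46.5 in aap6. It lay above the middle of every WT array and below the middle of every aap6 array, with a gap of 10.4 points. The share of all probes with such a gap in position was not counted. After quantile normalization, which keeps the order within an array, a gap with aap6 lower was found at 7.48% of the 2579 probes tested. Mean positions differed by -32.3 points for AT3G04500 and by -21.9 points for AT5G04600, aap6 minus WT.

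**Figure D2:**
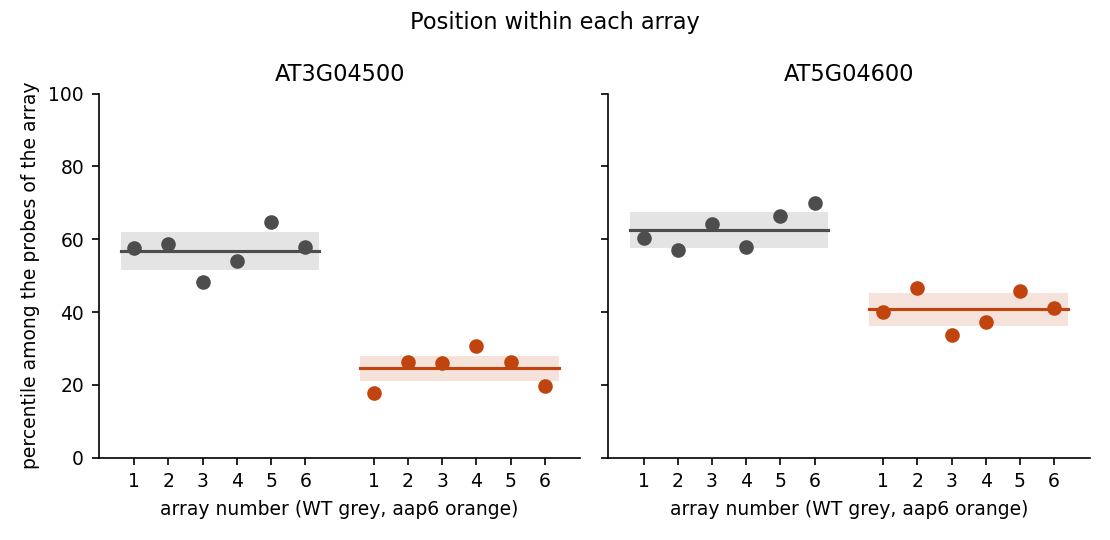
Position of both probes among the 3439 probes of each array, as a percentile, by array number, with WT in grey and aap6 in orange. Lines and bands are the mean and SD of the 3 averaged samples. All 6 aap6 arrays lie below all 6 WT arrays for both genes, with the wider gap for AT3G04500. After quantile normalization, 7.48% of the 2579 probes tested had such a gap with aap6 lower.

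The size of the difference therefore depended on how the brighter mutant arrays were brought to one scale. With quantile normalization, which gives every array the same distribution, the log2 level of AT3G04500 ran from -2.38 to -1.65 in WT and from -4.37 to -3.23 in aap6. The means were -2.002 ± 0.23 (SD, n = 3) and -3.72 ± 0.29. The log2 change, aap6 minus WT, was -1.72 ± 0.22 (SE), or 3.29-fold lower in aap6. For AT5G04600 the log2 level ran from -1.999 to -1.39 in WT and from -3.06 to -2.45 in aap6, with means of -1.74 ± 0.23 and -2.72 ± 0.22. Its log2 change was -0.98 ± 0.20 (SE), or 1.98-fold lower.

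On that scale the arrays of the genotypes did not overlap for either gene, with aap6 the lower. Such a gap with aap6 lower was found at 7.48% of the 2579 probes tested after quantile normalization, at 20.8% after median centring of the arrays, at 12.7% after centring on the 75th percentile, and at 1.67% as deposited. As deposited neither gene belonged to that share, and under the other scalings both did. In the fit over all probes, 79 of 2579 (3.06%) were lower in aap6 at a limma adjusted p of 0.05, and both genes were among them. Their choice from this contrast fixed that outcome, so nothing is read from it. Nor is anything read from the AT3G04500 call being kept in every alternative that tested it. The AT5G04600 call was lost without normalization, also with the replicate block, without WT array 3, and without any 1 averaged sample other than WT arrays 1 and 2. A fit blocked on the 3 averaged pairs of numbers called 184 probes lower. Over all probes the calls numbered 147 higher and 79 lower after quantile normalization, 880 and 20 as deposited, 317 and 174 centred on the 75th percentile, and 199 and 487 after median centring.

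Without normalization the log2 changes were -0.87 ± 0.26 (SE) for AT3G04500 and -0.29 ± 0.22 for AT5G04600. The median change of all probes was then 0.50. Relative to that median the changes were -1.37 and -0.78. Centring each array on its median gave -1.59 ± 0.23 and -1.01 ± 0.21, with the median of all probes at -0.22. Relative to it the changes were -1.37 and -0.79. Centring on the 75th percentile gave -1.34 ± 0.24 and -0.75 ± 0.21, or -1.38 and -0.79 relative to the median of all probes. The distance from the typical probe was therefore nearly the same under these 3 scalings, which differ by 1 factor per array, and larger after quantile normalization, at -1.69 and -0.95. The deposited files hold no signal known to be equal in both genotypes, so which scaling gives the true size was not tested.

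**Figure D3:**
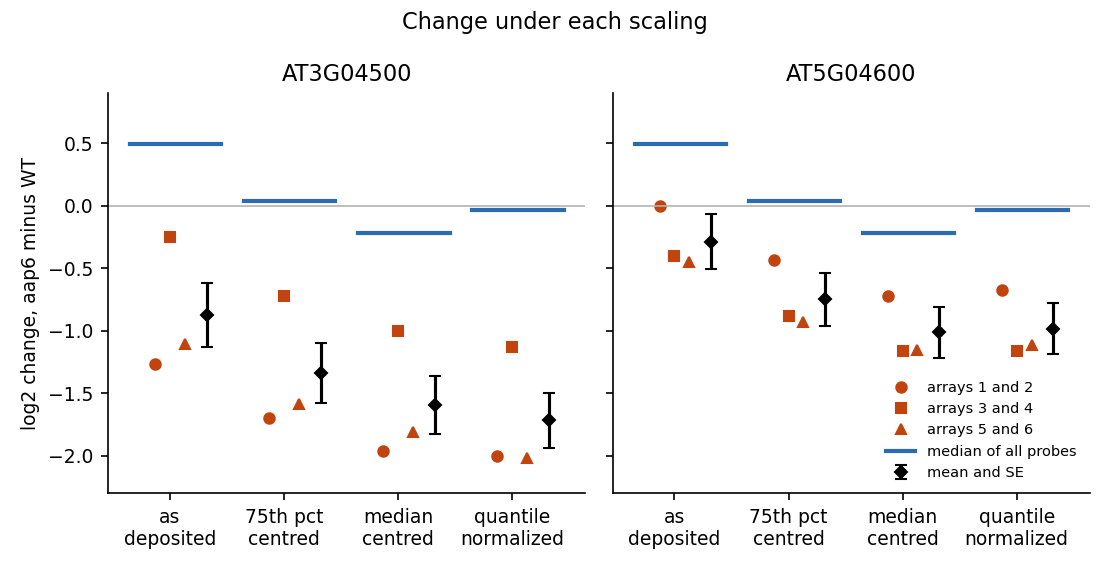
Log2 change, aap6 minus WT, of both genes under 4 scalings. Orange symbols are the 3 sample pairs by array number, black diamonds the mean with its SE from the fit, and blue lines the median change of all probes tested. Both genes lie below the blue line under each scaling, by a like distance under the first 3 and a larger one after quantile normalization. The change itself moves from -0.87 to -1.72 for AT3G04500 and from -0.29 to -1.01 for AT5G04600.

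The sample pairs did not give equal sizes. After quantile normalization the log2 change of AT3G04500 was -1.9998 for arrays 1 and 2, -1.13 for arrays 3 and 4 and -2.02 for arrays 5 and 6. For AT5G04600 the changes in the same order were -0.68, -1.16 and -1.11. The pair with the smallest difference in AT3G04500 thus had the largest in AT5G04600. Arrays 3 and 4 had both the lowest WT level and the highest aap6 level of AT3G04500, at -2.26 and -3.39 on the log2 scale. For AT5G04600 the same arrays held the lowest aap6 level, at -2.97.

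Within a pair, arrays of one genotype differed by 0.06 to 0.31 on the log2 scale for AT3G04500 in WT and by 0.31 to 0.85 in aap6. The largest of these gaps was between aap6 arrays 1 and 2, where the intensities were 0.0591 and 0.104. In aap6, 2 of the 6 values of AT3G04500 lay in the lowest 25% of all normalized values. With the floor raised to that level its change was -1.51. AT5G04600 differed by 0.15 to 0.30 within WT pairs and by 0.18 to 0.29 within aap6 pairs, and none of its values reached that range. The SD left by the fit was 0.26 for AT3G04500 and 0.23 for AT5G04600, against a median of 0.28 over all probes tested.

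Among the 493 tested probes with 1 gene, AT3G04500 had the most negative log2 change and AT5G04600 stood at rank 18 from the lowest. Over all 2579 probes their ranks were 3 and 69. As deposited, AT3G04500 lay below 99.6% of probes and AT5G04600 below 93.7%. Both genes were chosen for lower signal in this contrast, so low ranks follow from that choice and nothing is read from them.

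**Figure D4:**
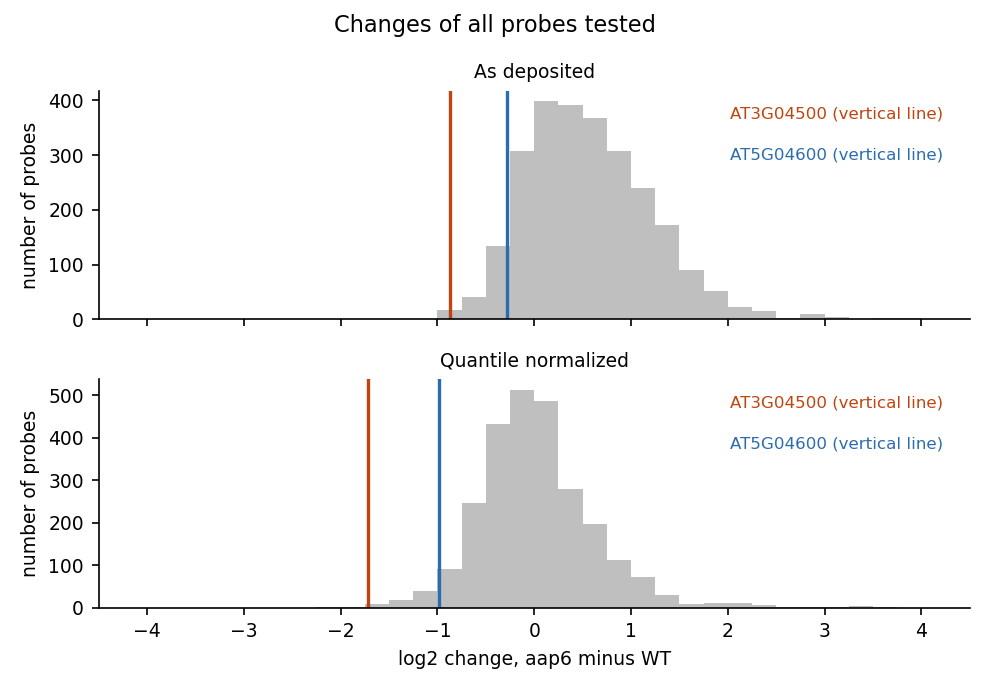
Number of probes (vertical axis) by log2 change, aap6 minus WT (horizontal axis, bins of 0.25), over 2579 probes, as deposited and after quantile normalization. Vertical lines mark AT3G04500 and AT5G04600. As deposited the distribution has its median at 0.50, and after quantile normalization at -0.03. Both genes lie on the lower side in both panels, AT3G04500 farther out.

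The ratio of both probes within an array cancels any factor applied to the whole array. The log2 of AT3G04500 over AT5G04600 had a lowest WT value of -0.80, a median of -0.19 and a highest of 0.098. In aap6 it was -1.55, -0.98 and -0.32. The genotypes overlapped, and aap6 was the lower in 5 of 6 numbers. Means were -0.30 ± 0.25 (SD, n = 3) in WT and -0.89 ± 0.48 in aap6, a difference of -0.59 against an SD of 0.48 among the aap6 samples. The means thus differed more for AT3G04500 than for AT5G04600, but the averaged arrays 3 and 4 ran the other way. Their log2 changes as deposited were -0.25 for AT3G04500 and -0.40 for AT5G04600. Among single numbers, array 3 ran the other way, at -0.80 in WT and -0.39 in aap6.

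Other genes were ranked by how closely their log2 levels followed each gene over the 12 arrays, among 492 probes with 1 gene. This likeness contains the genotype difference that chose the genes and is a description only. Nearest to AT3G04500 were AT1G34270 (Pearson r of 0.91), AT1G50880 (0.91), AT3G47980 (0.90), AT2G04540 (0.90) and AT1G03810 (0.90). Their own log2 changes were smaller, from -1.15 for AT3G47980 to -0.44 for AT1G50880. Nearest to AT5G04600 were AT5G48440 (0.90), AT4G01810 (0.90), AT1G34270 (0.89), AT2G01400 (0.89) and AT1G17160 (0.89). Their log2 changes ran from -1.27 for AT2G01400, more negative than that of AT5G04600, to -0.31 for AT1G17160. AT1G34270 stood in both sets, with a log2 change of -0.52 ± 0.17 (SE). The likeness of AT3G04500 and AT5G04600 to each other was 0.86, rank 11 from the side of AT3G04500 and 13 from that of AT5G04600.

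With the genotype means subtracted, the likeness between both genes was 0.028, against a median of 0.0079 between AT3G04500 and the other genes. Their array-to-array deviations within a genotype thus showed no clear relation. The genes nearest to AT3G04500 by deviations were AT2G38570 (0.65), AT4G13220 (0.64) and AT3G32930 (0.64), none of which was among its nearest by level. For AT5G04600 they were AT1G79220 (0.85), AT1G29700 (0.83) and AT3G54210 (0.82). The 12 deviations hold 6 pairs of similar arrays, so these values rest on fewer independent points than arrays.

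The nearest measured genes on the chromosome were compared, counted in protein-coding genes of the gene table. Measured here means having a probe that names no other gene, so a nearer gene may lie on a shared or unlisted probe. The nearest measured gene before AT3G04500 was AT3G04210, 30 genes away, which rose in aap6 with a log2 change of 1.88 ± 0.21 (SE; limma adjusted p = 0.00297). The nearest after it was AT3G04560, 7 genes away, with a change of -0.91 ± 0.28 that did not pass (limma adjusted p = 0.0859). As deposited that change was -0.12. Before AT5G04600, DME, which encodes the DNA glycosylase DEMETER, lay 2 genes away and had a change of 0.040 ± 0.27 (limma adjusted p = 0.942). The nearest after AT5G04600, AT5G05330, was 79 genes away and too dim to be tested.

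The search of the names available found no other RNA recognition motif gene. The gene tables hold symbols and synonyms but no descriptions, so a search for that family, for other RNA-binding families and for ribosome or nucleolus terms found 0 probes, and its outcome says nothing about which genes the array holds. From the genes with a symbol of their own, 6 known to act on RNA were picked, and 5 of them were tested. The 6 are not a full count of such genes, and whether any of them carries the motif was not checked. None of the 5 passed in limma, against 8.76% of all probes in either direction, and 0 had an unadjusted p under 0.05. Their median log2 change was -0.25, against -0.03 over all probes tested. They were picked by symbol, and the count is too small to describe a class.

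UBA1A, a protein named for its association with the RNA-binding protein UBP1, had deposited intensities with a lowest, median and highest value of 0.105, 0.155 and 0.193 in WT and 0.156, 0.191 and 0.295 in aap6. The genotypes overlapped, with the aap6 arrays higher at the median. Its log2 change was -0.32 ± 0.20 (SE; limma adjusted p = 0.337) after quantile normalization and 0.42 as deposited, so its sign turned with the scaling. PAC (PALE CRESS), needed for plastid RNA maturation, showed the same turn of sign, with -0.41 ± 0.32 (limma adjusted p = 0.457) and 0.27 as deposited. CRR21, an editing factor of a chloroplast NDH transcript, had -0.25 ± 0.26 and 0.37 as deposited. OTP70 had 0.17 ± 0.18 and OTP85 had 0.35 ± 0.21 (limma adjusted p = 0.327), both organelle transcript processing factors. OTP70 had a change of 0.56 as deposited and of -0.17 after median centring, so its sign turned too. Without normalization OTP85 was higher in aap6 with a change of 1.14 that passed (limma adjusted p = 0.00302), and centred on the 75th percentile it passed with 0.78 (limma adjusted p = 0.0272). ATAB2, a factor for the translation of photosystem transcripts, was too dim to be tested. On the deposited scale AT3G04500 and AT5G04600 were lower in aap6 in the mean, while the means of these 6 genes were higher, as was the median of all probes.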

How the data were processed

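The deposited table held 1 linear intensity per probe and sample for 12 arrays. Per the file's values, the authors deposited intensities from 0 to 100; background correction, scaling and centring are not given in the sources used here and remain unknown. Of 41268 values 4318 were 0. Names came from the platform annotation (692 probes with 1 gene, 870 with several, 1877 not listed; the last 2 kinds named no gene here), matched by gene identifier to the TAIR10.1 gene table for 690 of 692. No coordinates are given, since the deposited table names no build.

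Intensities were quantile normalized, values under 0.0451, the 10th percentile of those above 0, were set to it, and log2 was taken. The 25% of probes with the lowest mean were left out, arrays 1 and 2, 3 and 4, and 5 and 6 were averaged, and aap6 minus WT was fitted by lmFit and eBayes of limma 3.58.1 (R 4.3.3), with Benjamini-Hochberg adjustment at 0.05 over 2579 probes. On simulated data for this comparison (2579 probes, 200 changed), 59% of 2-fold and 91% of 4-fold changes were recovered, with 8 false calls. Noise was drawn independently for each probe on the normalized scale, without shared deviations of arrays or a brightness difference between genotypes. The rates on the real arrays may therefore differ. Arrays of the same number deviated together across genotypes (correlations 0.416 to 0.539, averaged pairs 0.398 to 0.498), a pairing seen in the data, not in the labels.

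Named genes were both RNA recognition motif genes, the 5 and 3 most alike, the nearest gene with a probe of its own on each side, and genes of the annotation searches. The genes with an RNA-related symbol were added after those searches found none. Members, lists and settings were chosen with earlier results of these data known. Alternatives were 3 other scalings, other floors and filters, 12 separate arrays, replicate blocks, another variance model and leaving out arrays.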

Additional observations from a re-analysis of the deposited data

How the results depend on the processing

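The log2 changes of AT3G04500 and AT5G04600 kept their sign under every alternative that tested them. Both genes were chosen for lower signal in aap6 on these arrays, so nothing is read from the kept sign. Filters, blocks, separate arrays and the variance model cannot move the changes in this balanced design. The changes can move only with scalings, floors and leave-outs. They moved by more than the spread between samples under 2 scalings, to -0.87 and -0.29 without normalization (also with the replicate block over 3 averaged pairs added) and to -1.34 and -0.75 centred on the 75th percentile. With the lowest 50% of probes left out AT3G04500 was too dim to be tested. Leaving out single arrays or averaged pairs gave -1.88 to -1.58 for AT3G04500 and -1.07 to -0.85 for AT5G04600. As a block, the replicate numbers cannot move either change, since each block holds 1 sample of each genotype. The SE was then 0.22 for AT3G04500 and 0.17 for AT5G04600 over the 3 averaged pairs.

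The count of 226 probes called (79 lower in aap6) was 900 without normalization, 686 with median centring and 491 with the 75th percentile. A floor from all values (10th percentile) or from the 2nd percentile of those above 0 gave 133. With 12 arrays as 12 samples it was 776, and the replicate block gave 1040 over 12 arrays and 437 over the 3 averaged pairs, or 1211 without normalization and 1037 with median centring; the last 2 were chosen after seeing the data. Leave-outs gave 58 to 199. It was 143 and 87 without WT arrays 1 and 2 or 3 and 4, and 72, 58 and 96 without aap6 arrays 1 and 2, 3 and 4 or 5 and 6. Fewer samples enter those fits, and otherwise the cause was not tested. Among the other genes given a p, no call changed under the replicate block over 3 averaged pairs. The search of names gave no list of other RNA recognition motif genes, so the planned count and median of such a list were not run.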
